A study of Mus musculus with 8 samples.

Results

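Transcripts of 8 secreted factors of fat cells were followed in both cell lines of the series: Adipoq, Lep, Retn, Cfd, Rbp4, Apln, Angptl4 and Nrg4. They were chosen by name, as hormones and factors that adipocytes release, and all 8 had a row among the 35976 rows of the BAC table and the 21828 rows of the 3T3-L1 table. RNA-seq counts were available for 8 libraries in 4 groups of 2. BAC is a line of mouse brown preadipocytes taken from the interscapular brown fat of newborn wild-type mice and immortalised with the large T antigen of SV40, and it was sampled at day 0 and at day 4. 3T3-L1 is a line of mouse embryo fibroblasts from a cell bank that forms white-type adipocytes, and it was sampled at day 0 and at day 6. Every library was labelled wild type. Day 0 was set at 2 days after the cells had become confluent and was the day on which the adipogenic mixture of IBMX, indomethacin, dexamethasone, insulin and T3 was first given. From day 2 the cells had insulin and T3 only. Each line stands for a single cell line in culture, the cell type label of BAC at day 4 still reads preadipocyte, and the labels do not state whether libraries were made from separate cultures. The p-values therefore cover no more than the spread seen between the libraries, which may be technical.

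Adipokines are proteins that fat cells release into the blood or to their neighbours. Adiponectin (Adipoq) raises insulin sensitivity, leptin (Lep) reports the size of fat stores to the brain, and resistin (Retn) opposes insulin action in mice. Adipsin (Cfd, complement factor D) is the protease that starts the alternative complement pathway, and Rbp4 carries retinol. Apelin (Apln) is a peptide ligand of a G protein-coupled receptor, Angptl4 inhibits lipoprotein lipase, and Nrg4 is a ligand of ERBB receptors that is known for its release from brown fat. Leptin and resistin are regarded as products of white rather than brown adipocytes.

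Libraries held between 9045849 and 10160636 counts, and the pairs of libraries varied beyond counting noise (chi-square per gene from 1.87 to 5.17, where counting noise gives about 1). Of the adipocyte markers 10 of 10 were past the test and higher late in both lines. Over all genes tested, 39.1% in BAC and 39.8% in 3T3-L1 were called higher. Markers below the minimum of the low-count filter in a group passed it only through the other group, which fixed their direction. In 3T3-L1 these included Slc2a4 and Plin1, with 6 and 13 counts at day 0. The summed level of the adipocyte markers rose from 1005 to 1044 CPM (counts scaled to library size) to 23600 to 25020 CPM in BAC. In 3T3-L1 it rose from 911.5 to 1028 CPM to 39210 to 40750 CPM. The 9 preadipocyte and fibroblast markers summed to 411 to 419.9 CPM in BAC at day 4 and to 5872 to 6174 CPM in 3T3-L1 at day 6. The 8 brown adipocyte markers rose from at most 12.21 CPM to 586.2 to 727.3 CPM in BAC and from at most 20.64 CPM to 75.98 to 77.73 CPM in 3T3-L1, with Ucp1, Cidea and Dio2 at 0 at day 0 in both. The leukocyte markers Ptprc and Adgre1 had no counts in any group, and the 7 leukocyte markers together stayed at or below 18.27 CPM. The 6 hepatocyte markers stayed at or below 6.718 CPM. The 6 skeletal muscle markers summed to at most 4.325 CPM at day 0 and to 46.99 to 47.39 CPM late in BAC, and to at most 2.181 and then 44.45 to 45.06 CPM in 3T3-L1. Des, a muscle filament protein, was past the test and higher in both lines. Acta1, another of these markers, was past the test and higher in 3T3-L1 (6 to 89 counts). In BAC it had 4 and 2 counts and was not tested. Myod1, Myog and Myf5, the regulators that define muscle, had no counts late in either line. The 6 endothelial markers went from 17.12 to 18.46 CPM to at most 0.8463 CPM in BAC, where Kdr was past the test and lower, and stayed at or below 3.408 CPM in 3T3-L1. The part of these markers in the changes below was not tested. In RNA from whole dishes, more adipocytes in a dish and more RNA per adipocyte cannot be told apart.

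To show where transcription of these genes starts, RefSeq promoter windows (GRCm38.p6, the 250 bases before the annotated start) were read for 7 of the 8 genes, all but Angptl4. Those of Adipoq and Cfd are printed because these genes had the highest levels per kilobase after differentiation, and that of Lep because of a rare motif. Letters in capitals mark matches to the motifs searched on both strands.
Adipoq (chr16:23146286-23146535, plus strand): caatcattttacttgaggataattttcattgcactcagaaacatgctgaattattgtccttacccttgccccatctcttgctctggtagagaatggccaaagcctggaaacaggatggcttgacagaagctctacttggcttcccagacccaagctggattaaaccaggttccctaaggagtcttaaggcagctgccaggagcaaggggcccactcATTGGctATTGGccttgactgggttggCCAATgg
Lep (chr6:29059971-29060220, plus strand): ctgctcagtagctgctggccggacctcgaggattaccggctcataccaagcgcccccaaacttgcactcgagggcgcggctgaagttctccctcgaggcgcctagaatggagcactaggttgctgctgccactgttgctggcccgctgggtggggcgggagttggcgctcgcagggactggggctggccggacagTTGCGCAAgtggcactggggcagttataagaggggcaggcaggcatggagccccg
Cfd (chr10:79890603-79890852, plus strand): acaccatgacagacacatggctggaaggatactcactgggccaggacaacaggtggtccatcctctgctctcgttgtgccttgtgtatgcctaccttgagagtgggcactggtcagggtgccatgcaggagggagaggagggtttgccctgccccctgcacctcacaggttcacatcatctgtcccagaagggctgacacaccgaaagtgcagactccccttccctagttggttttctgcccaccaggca

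The Adipoq window held 3 copies of the CCAAT box (CCAAT, or ATTGG on the other strand), at -34 to -30, -27 to -23 and -7 to -3 from the start. This motif was found in 33.8% of the 32851 windows of that length in the table. The Lep window held the palindrome TTGCGCAA, a form of the C/EBP element, at -55 to -48, and 0.164% of all windows did. The nuclear receptor element AGGTCA occurred at -90 to -85 and at -26 to -21 in the window of Nrg4, both times as TGACCT, against 14.0% of windows with a match. Rbp4 had windows at different annotated starts, with a TATA box (TATAAA, 12.4% of windows) at -28 to -23 in one of them and a CCAAT box at -162 to -158 in the other. The windows of Cfd, Retn and Apln held none of these letters, nor the E-box CACGTG (6.02% of windows) or the DR1 direct repeat of AGGTCA with any single base between the copies (0.0335%). Neither was in the other windows. A match describes letters only, and no binding was measured here.

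The first comparison asked how the 8 transcripts changed as BAC cells differentiated, and the second asked the same of 3T3-L1 cells. In each line 7 of the 8 were tested and all 7 were higher late, where 39.1% of the 14028 genes tested in BAC and 39.8% of the 11902 tested in 3T3-L1 were called higher. Calls in either direction took 78.5% of genes in BAC (39.4% lower) and 79.4% in 3T3-L1 (39.6% lower). The exceptions were Lep in BAC and Rbp4 in 3T3-L1, which had too few counts to pass the filter on low counts. Retn and Cfd in BAC, and Adipoq, Lep, Retn and Cfd in 3T3-L1, passed that filter only through the late libraries, so that their direction was fixed by passing it. The other members tested, 5 in BAC and 3 in 3T3-L1, also passed it on their day 0 libraries. The counts and medians over tested members are therefore a description only. The median log2 change of the tested members was 5.47 in BAC and 9.58 in 3T3-L1, or 6.13 with Lep at its bound, against 0.01 and 0.00 over all genes tested. Calls over all genes were split evenly (5488 higher and 5526 lower in BAC, 4736 and 4717 in 3T3-L1). With libraries scaled by their total alone the split was 4298 to 6795 and 3424 to 6306, with the median change shifted by -0.26 in BAC and -0.29 in 3T3-L1. All tested members were higher under that scaling as well. CPM values below are normalised with TMM factors within a line and given as mean ± SD of n = 2 libraries, log2 changes carry their standard error, and adjusted p-values are from edgeR over all genes tested.

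**Figure D1:**
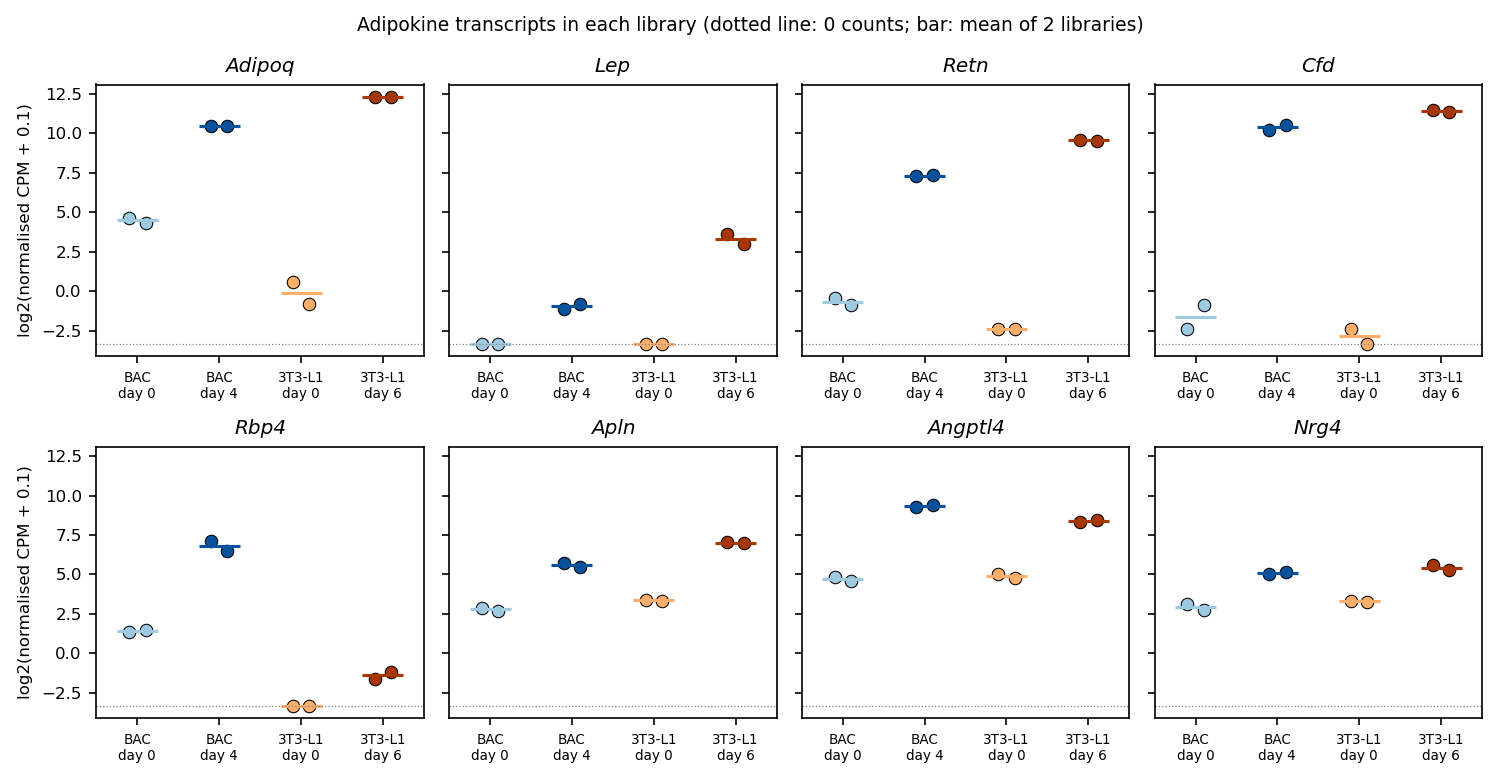
Level of each of the 8 transcripts in each library, as log2 of normalised CPM with 0.1 added (vertical axis), by line and day (horizontal axis). Points are libraries, bars the mean of 2, and the dotted line marks 0 counts. Both late libraries lie above both day 0 libraries in each line in all 8 panels, as for 44.4% of the genes tested in BAC and 44.7% of those tested in 3T3-L1.

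Adipoq, which encodes adiponectin (chromosome 16, 23146536 to 23158028, GRCm38), was already read in BAC preadipocytes and close to absent in 3T3-L1 preadipocytes. In BAC it had 273 and 223 counts at day 0 and 11584 and 11410 at day 4. In 3T3-L1 it had 15 and 5 counts at day 0 and 43219 and 43480 at day 6. Both late libraries lay above both day 0 libraries in each line. BAC went from 22.4 ± 3.13 to 1382 ± 3.94 CPM, a log2 change of 5.95 ± 0.10 (adjusted p = 6.19e-15). 3T3-L1 went from 0.947 ± 0.669 to 5033 ± 37.5 CPM, a log2 change of 12.36 ± 0.34 (adjusted p = 6.26e-24), or 13.34 without replicate 2 of day 0, the library with 15 counts.

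Lep, the leptin gene (chromosome 6, 29060220 to 29073877), had no counts at day 0 in any library of either line. It had 3 and 4 counts in the BAC libraries at day 4, and 105 and 67 counts in the 3T3-L1 libraries at day 6. The 3T3-L1 late level was 9.98 ± 3.09 CPM. That was at least 70.3-fold above day 0, with the day 0 group set at a floor of 3 counts (adjusted p = 1.6e-10). In BAC the 7 counts at day 4 were at least 3.11-fold above day 0 set at that floor, and the gene was not tested. With no filter on low counts Lep was past the test in BAC too (adjusted p = 0.0385). The level in BAC at day 4 was 0.421 ± 0.0883 CPM.

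Retn, the resistin gene (chromosome 8, 3655770 to 3660110), was near 0 in all 4 day 0 libraries. BAC had 7 and 5 counts at day 0 and 1299 and 1365 at day 4. The change in BAC was from 0.542 ± 0.126 to 160 ± 6.87 CPM, a log2 change of 8.17 ± 0.38 (adjusted p = 8.69e-15). 3T3-L1 had 1 count in each day 0 library and 6711 and 6287 at day 6, so that the groups stood far apart. With 2 counts at day 0 the ratio was 7963 with an exact 95% interval of 2204 to 65760, which covers counting error only (adjusted p = 2.49e-23).

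Cfd, which encodes adipsin (chromosome 10, 79890853 to 79892655), had the largest fitted change of the 8 in each line. BAC had 1 and 5 counts at day 0 and 10018 and 12015 at day 4. The level rose from 0.271 ± 0.256 to 1325 ± 180 CPM, a log2 change of 12.19 ± 0.68 (adjusted p = 5.37e-15). On these few day 0 counts, the value was 13.62 without replicate 2 of day 0 and 11.45 without replicate 1. In 3T3-L1 the day 0 libraries had 1 and 0 counts and the day 6 libraries 24148 and 22420, a ratio of 57060 with an exact 95% interval of 10240 to 2254000 (adjusted p = 6.26e-24). Its fitted log2 change of 15.45 moved to 17.61 without replicate 2 of day 0 and to 14.60 without replicate 3.

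Rbp4, which encodes the plasma carrier of retinol (chromosome 19, 38116629 to 38125281), was abundant after differentiation in the brown line and had 5 counts in all in 3T3-L1. BAC had 27 and 30 counts at day 0 and 1156 and 753 at day 4. The rise from 2.57 ± 0.199 to 115 ± 33.4 CPM was a log2 change of 5.47 ± 0.32 (adjusted p = 1.09e-11), and the day 4 libraries differed more, relative to their mean, than those of any other tested member. 3T3-L1 had no counts at day 0 and 2 and 3 counts at day 6, at least 2.04-fold above day 0 set at the floor. The gene was not tested in that line, and with no filter it missed the threshold (adjusted p = 0.0553).

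Apln, the apelin gene (chromosome X, 48025146 to 48034853), was read in preadipocytes of both lines. In BAC the counts were 81 and 71 at day 0 and 452 and 373 at day 4, and the level rose from 6.86 ± 0.619 to 49.6 ± 6.33 CPM (log2 change 2.85 ± 0.15, adjusted p = 7.19e-11). In 3T3-L1 the counts were 111 and 104 at day 0 and 1135 and 1102 at day 6, a rise from 10.2 ± 0.457 to 130 ± 2.3 CPM (log2 change 3.67 ± 0.10, adjusted p = 4.21e-19). Day 0 and late libraries did not overlap in either line.

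Angptl4, the lipase inhibitor (chromosome 17, 33773750 to 33781830), was the member with the highest day 0 counts in each line. BAC had 314 and 267 counts at day 0 and 5216 and 5509 at day 4, which took the level from 26.2 ± 2.93 to 645 ± 30 CPM (log2 change 4.62 ± 0.10, adjusted p = 1.57e-14). 3T3-L1 had 345 and 291 counts at day 0 and 2755 and 2958 at day 6, or 30.1 ± 3.58 and 332 ± 17.7 CPM (log2 change 3.46 ± 0.08, adjusted p = 1.21e-19). The day 0 counts of the lines lay close together and the late counts of BAC were the higher ones.

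Nrg4, the ERBB ligand (chromosome 9, 55220222 to 55326844), rose least. The BAC libraries had 96 and 72 counts at day 0 and 272 and 301 at day 4, and the level went from 7.58 ± 1.51 to 34.5 ± 2.74 CPM (log2 change 2.18 ± 0.15, adjusted p = 3.13e-09). The 3T3-L1 libraries had 104 and 101 counts at day 0 and 411 and 335 at day 6, a change from 9.71 ± 0.189 to 43.3 ± 6.1 CPM (log2 change 2.16 ± 0.13, adjusted p = 1.5e-12). Nrg4 shares exon bases with Fbxo22 on the opposite strand (55220222 to 55224433) and with the pseudogene Gm15625, and the use of strand in counting is not stated, so their reads cannot be told apart. No other member overlapped another annotated gene.

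The third comparison tested whether a transcript changed by different amounts in the lines, as the log2 change in BAC minus that in 3T3-L1. Day of sampling, table and line differ together, so what sets a difference cannot be told apart. Of the 8 members 5 were past the test, against 59% of the 12863 genes tested. Of these, 4 rose more in 3T3-L1 and 1 rose more in BAC. Over all genes tested, 33.7% were past the test with a difference below 0 and 25.3% with a difference above 0. Those shares include genes that fell in a line. The difference was -6.44 ± 0.35 for Adipoq (adjusted p = 9.39e-18), -4.63 ± 0.98 for Retn (adjusted p = 8.51e-06) and -0.85 ± 0.18 for Apln (adjusted p = 0.000303). Without replicate 2 of 3T3-L1 at day 0 the value for Adipoq was -7.42. For Adipoq, the BAC libraries began higher and ended lower than those of 3T3-L1. Angptl4 was the member that rose more in BAC, by 1.13 ± 0.13 (adjusted p = 3.53e-08).

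Cfd was past the test with a difference of -3.30 ± 1.72 (adjusted p = 0.0294), but its 95% interval from the standard error ran from -6.86 to 0.25. The call was lost without replicate 2 of BAC at day 0 (-1.70, adjusted p = 0.563), without replicate 3 of 3T3-L1 at day 0 (-2.46, adjusted p = 0.123) and with no filter on low counts (adjusted p = 0.143). Without replicate 2 of 3T3-L1 at day 0 the value was -5.56. For Nrg4 no difference was detected (adjusted p = 1), with a 95% interval from -0.43 to 0.43, and the sign of the estimate changed with the scaling. Lep and Rbp4 had no counts in a day 0 group, so that the size of their difference could not be estimated (adjusted p = 1 and 0.777). Their late counts nevertheless ran in opposite directions, with 172 counts of Lep in 3T3-L1 against 7 in BAC and 1909 counts of Rbp4 in BAC against 5 in 3T3-L1.

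**Figure D2:**
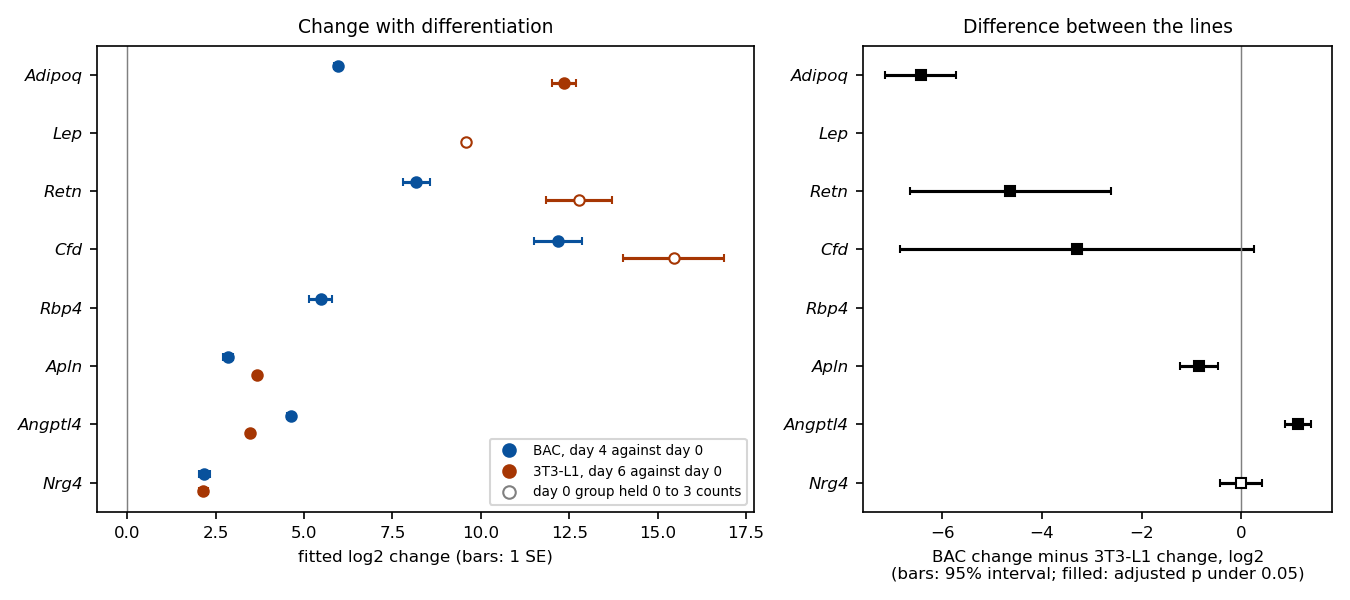
Left, fitted log2 change with differentiation of each member in BAC (blue) and 3T3-L1 (red), with bars of 1 standard error and open symbols where the day 0 group held 0 to 3 counts. Right, BAC change minus 3T3-L1 change with its 95% interval, filled where the adjusted p was under 0.05: Adipoq, Retn, Cfd and Apln lie below 0, Angptl4 lies above 0 and Nrg4 lies at 0.

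Levels of different genes were compared per kilobase of annotated exon, within a group. In BAC at day 4 the order was Cfd (1437 ± 195 CPM per kilobase), Adipoq (1001 ± 2.85), Angptl4 (182 ± 8.46), Retn (101 ± 4.35), Rbp4 (85.4 ± 24.8), Apln (15.7 ± 2.01), Nrg4 (5.67 ± 0.45) and Lep (0.126 ± 0.0263). Retn and Rbp4 overlapped between libraries and no other neighbours did. Cfd ranked 12 and Adipoq 18 among the 26683 genes with an annotated length, or 18 and 32 with the longest transcript as the length. In 3T3-L1 at day 6 the order was Adipoq (3644 ± 27.1 CPM per kilobase), Cfd (2932 ± 145), Retn (478 ± 20.5), Angptl4 (93.7 ± 5), Apln (41.2 ± 0.729), Nrg4 (7.13 ± 1), Lep (2.98 ± 0.921) and Rbp4 (0.216 ± 0.0618), and no neighbours overlapped. Adipoq ranked 2 and Cfd 3 among 21342 genes there, or 3 and 4 with the longest transcript.

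The order at day 0 was another one. In BAC, Adipoq (16.2 ± 2.27 CPM per kilobase) stood first and Angptl4 (7.41 ± 0.827) second, whereas in 3T3-L1 Angptl4 (8.51 ± 1.01) stood first and Adipoq (0.686 ± 0.484) came after Apln (3.23 ± 0.145) and Nrg4 (1.60 ± 0.0311). Lep in both lines, and Rbp4 in 3T3-L1, had no counts. The place of Nrg4 among the members also depended on the length used. With its longest transcript in place of all exons its late level was 16.5 CPM per kilobase in BAC and 20.7 in 3T3-L1. In BAC that mean was close to that of Apln (15.7 ± 2.01), and the libraries of Nrg4 and Apln overlapped.

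**Figure D3:**
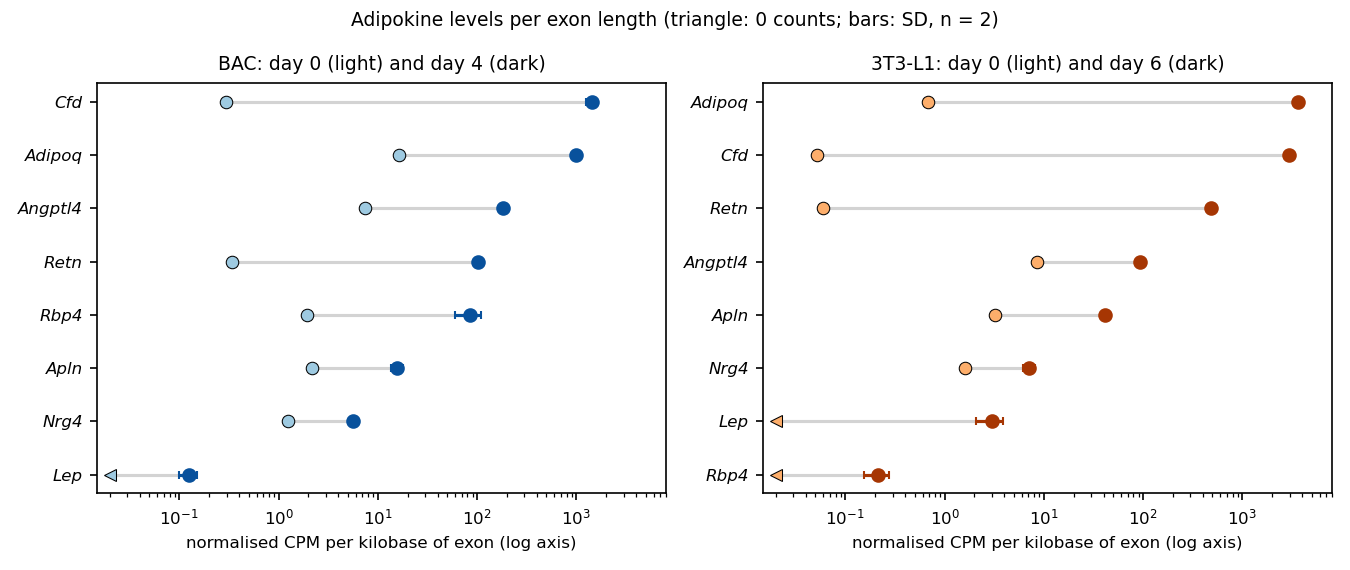
Level per kilobase of exon (horizontal log axis, normalised CPM per kilobase) of each member at day 0 (light) and late (dark), ordered by late level, with SD bars of n = 2 libraries and triangles for 0 counts. Cfd and Adipoq lead in both lines, Rbp4 stands next to Retn in BAC and last in 3T3-L1, and Lep is last in BAC.

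Receptors and processing proteins of adiponectin were examined next. The counts in this list and in those that follow stand beside the shares over all genes tested. These shares were 39.1% higher and 39.4% lower in BAC, and 39.8% and 39.6% in 3T3-L1. Listed genes below the minimum of the low-count filter in a group passed it only through the other group, which fixed their direction. Of 12 listed genes, 4 were higher and 6 lower among 11 tested in BAC (median log2 change -0.34), and 8 were higher and 4 lower among 12 tested in 3T3-L1 (median 0.62). Adipor2, an adiponectin receptor, rose by 3.38 ± 0.08 in BAC and 4.00 ± 0.06 in 3T3-L1, and its relative Adipor1 by 0.75 ± 0.07 and 0.87 ± 0.06. Ero1l, the oxidase that helps adiponectin leave the endoplasmic reticulum, rose by 4.39 ± 0.09 in BAC and 4.80 ± 0.06 in 3T3-L1. Cdh13, the cadherin that binds adiponectin at the cell surface, went the other way. It had 106 counts in BAC at day 0 and 3 at day 4, a ratio of 26.5 with an exact interval of 8.84 to 131, and in 3T3-L1 it fell by 2.56 on the log2 scale.

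The leptin receptor Lepr was barely read, with 5 counts at day 0 and 2 at day 4 in BAC and with 5 and 1 in 3T3-L1, and was not tested. Of 9 genes of leptin reception and signalling, 8 were tested in each line. In BAC 3 were higher and 5 lower (median -0.40), and in 3T3-L1 3 were higher, 2 lower and 3 not past the test (median 0.07). Leprot, encoded at the leptin receptor locus, fell (log2 changes -1.35 in BAC and -1.55 in 3T3-L1). Socs3, a feedback inhibitor of leptin signalling, fell as well (-0.87 and -2.75), and Irs1, an insulin receptor substrate, rose by 0.61 ± 0.10 and 1.02 ± 0.05.

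The list for resistin held 3 relatives of the hormone and 3 proteins proposed as its receptors. In BAC the 3 tested of 6 listed were the proposed receptors, all lower (median -1.71). In 3T3-L1 the 4 tested were these and the relative Retnla, and 2 were higher (Tlr4 and Retnla) and 2 lower (median -0.11). Cap1, an actin-binding protein proposed as a resistin receptor in human cells, fell (log2 changes -1.71 in BAC and -1.25 in 3T3-L1). Ror1, a receptor tyrosine kinase, went from 135 to 3 counts in BAC, a ratio of 33.8 (exact interval 11.3 to 166), and fell by 2.59 in 3T3-L1. Tlr4, the endotoxin receptor, fell by 0.60 in BAC and rose by 1.02 ± 0.07 in 3T3-L1, a difference of -1.64 ± 0.16 (adjusted p = 3.68e-09). The resistin relative Retnla, named after its values were seen, had no counts in BAC and went from 0 to 42 counts in 3T3-L1. That was at least 17.2-fold above day 0 with day 0 set at the floor (adjusted p = 2.46e-07). Retnla passed the filter on low counts only through the day 6 libraries, so that its direction was fixed by passing it.

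Complement genes, the substrates and partners of adipsin, were mostly below the filter. Of 22 listed, 8 were tested in each line, with 2 higher, 5 lower and 1 not past the test in BAC (median -0.42) and 4 higher, 2 lower and 2 not past in 3T3-L1 (median 0.03). C3, whose product is cleaved by the convertase that adipsin completes, rose by 4.20 ± 0.09 in BAC and 3.09 ± 0.05 in 3T3-L1, to 811 and 2332 CPM. C4b, of the classical pathway, rose by 0.80 ± 0.08 and 2.36 ± 0.12. Cfb, complement factor B, named after its values were seen, had a log2 change of -0.38 in BAC (adjusted p = 0.0498). In 3T3-L1 it rose by 1.02 ± 0.18 (adjusted p = 2.99e-05), a difference of -1.43 ± 0.25 (adjusted p = 1.78e-05). The protease genes C1ra and Masp1 were lower. The log2 changes of C1ra were -3.63 in BAC and -2.66 in 3T3-L1, and those of Masp1 -5.13 and -2.06.

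Retinol handling, the setting of Rbp4, had 13 tested of 21 listed in BAC, with 6 higher and 7 lower (median -0.75), and 8 tested in 3T3-L1, with 4 higher and 4 lower (median 0.37). Stra6, the receptor that takes retinol from Rbp4, had 19 counts in BAC at day 0 and none at day 4, and 6 and none in 3T3-L1, and was not tested. Dhrs3, which reduces retinaldehyde, rose by 4.05 ± 0.14 in BAC and 2.17 ± 0.10 in 3T3-L1. Retsat, which saturates retinol, rose by 3.12 ± 0.09 and 3.28 ± 0.07, and Dhrs9, a retinol dehydrogenase, by 2.01 ± 0.13 and 3.14 ± 0.13. A binding protein and a receptor were lower. Crabp1, a carrier of retinoic acid, went from 116 counts to 1 in BAC and had none in 3T3-L1. Rarg, a retinoic acid receptor, fell (log2 changes -1.77 and -2.61).

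The apelin receptor gene Aplnr had 7 counts at day 0 and 3 at day 4 in BAC and 10 and 3 in 3T3-L1, too few for a test. Of 7 listed names of apelin reception and processing, 6 had a row and 2 were tested in each line. The name without a row, Pcsk3, is an older symbol of Furin. Mme, the membrane peptidase neprilysin that degrades apelin, rose by 1.54 ± 0.11 in BAC and 1.86 ± 0.43 in 3T3-L1. Furin, a convertase of propeptides, fell by 0.58 in BAC and was not past the test in 3T3-L1 (0.05 ± 0.07, adjusted p = 0.452), where its sign changed with the scaling.

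The list for Angptl4 held 16 genes: its relatives, its target and further genes such as Lipg, Lmf1, Sel1l, Vldlr and Glmp. Of these, 7 were higher and 5 lower among 12 tested in BAC (median 0.32). In 3T3-L1, 7 were higher and 4 lower among 11 tested (median 0.85). Lpl, the lipoprotein lipase that Angptl4 inhibits, rose by 2.02 ± 0.08 in BAC, from 698 to 2821 CPM, and by 4.67 ± 0.06 in 3T3-L1, from 835 to 21220 CPM. Angptl8, a relative that acts with other angiopoietin-like proteins on the lipase, rose by 5.97 ± 0.57 in BAC, on 8 counts at day 0. In 3T3-L1 it rose by 3.82 ± 0.71, on 4 counts. In both lines Angptl8 passed the filter on low counts only through the late libraries. Without replicate 1 of day 0 the BAC value was 6.89, and without replicate 2 it was 5.39. Angptl6 rose by 3.84 ± 0.17 and 2.28 ± 0.20, and Glmp, a lysosomal membrane protein, fell (-0.98 and -0.83). Angptl1 fell by 4.55 on the log2 scale in BAC and rose from 2.27 to 6.04 CPM in 3T3-L1 (adjusted p = 2.77e-05), a difference in log2 change of -5.98 ± 0.59 (adjusted p = 1.14e-11).

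For Nrg4, the listed neuregulins, ERBB receptors and shedding proteins numbered 12, with 2 higher and 8 lower of 10 tested in BAC (median -1.43) and 2 higher, 5 lower and 1 not past the test of 8 in 3T3-L1 (median -0.76). The receptors of Nrg4 itself were read in BAC only at low counts. Erbb4 had 23 counts at day 0 and 61 at day 4 (log2 change 1.81 ± 0.40). Erbb3 had 6 and 40 (3.09 ± 0.57) and passed the filter on low counts only through the day 4 libraries. In 3T3-L1, Erbb4 had 1 count at each day and Erbb3 had 4 and none, and neither was tested. Erbb2, the shared partner receptor, fell (log2 changes -3.13 in BAC and -2.83 in 3T3-L1), as did Egfr (-3.61 and -2.22). The family member Nrg1 fell (-6.47 and -2.93) while Nrg4 rose. Errfi1, an inhibitor of Egfr, fell by 1.99 in BAC and rose by 0.86 ± 0.10 in 3T3-L1, a difference of -2.88 ± 0.13 (adjusted p = 2.45e-15).

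**Figure D4:**
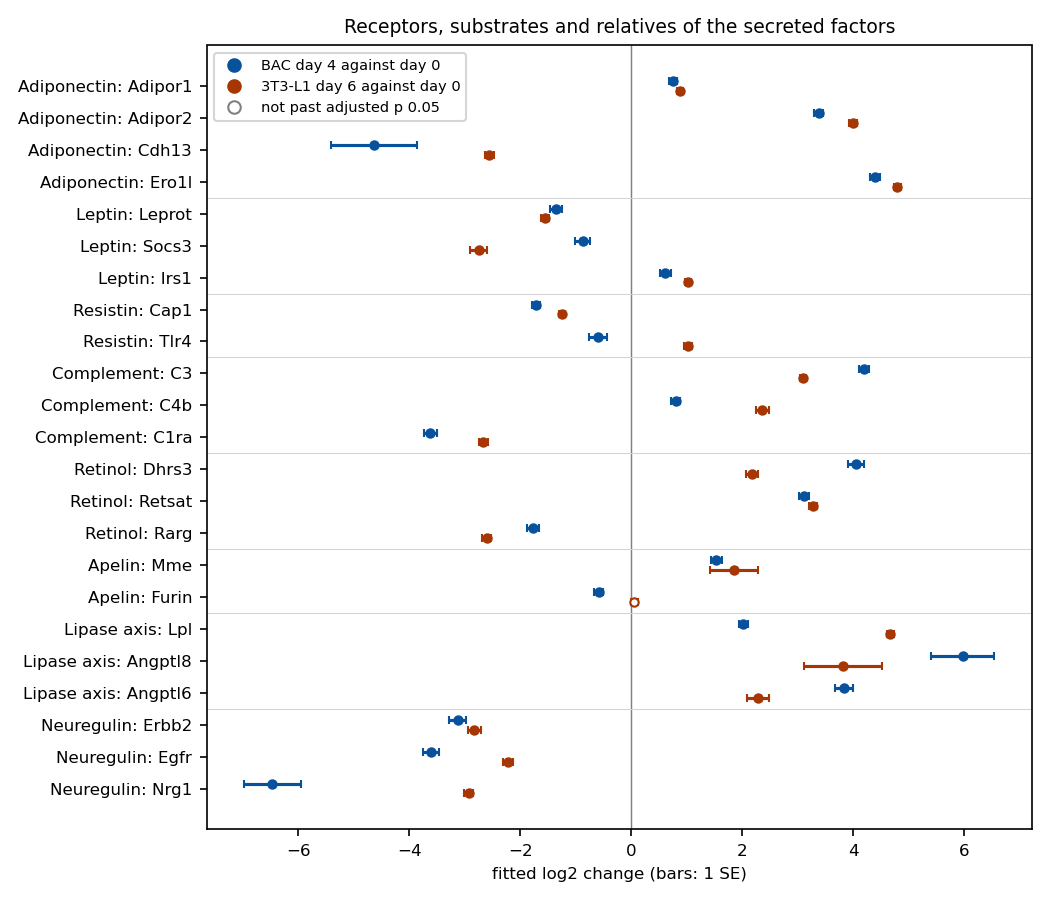
Fitted log2 change of receptors, substrates and relatives of the secreted factors in BAC (blue) and 3T3-L1 (red), with bars of 1 standard error and open symbols where the adjusted p was not under 0.05. Adipor2, Ero1l, C3, Retsat and Lpl lie to the right of 0 in both lines and Egfr, Erbb2 and Nrg1 to the left.

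Other secreted proteins did not all move with the 8 members. Of 35 further secreted fat factors, 9 were higher, 13 lower and 2 not past the test among 24 tested in BAC (median -0.62). In 3T3-L1, 12 were higher, 9 lower and 1 not past among 22 tested (median 0.74). Over all genes tested, 39.1% were called higher and 39.4% lower in BAC, and 39.8% and 39.6% in 3T3-L1. Rarres2, which encodes chemerin, rose by 1.91 ± 0.18 in BAC and 4.03 ± 0.09 in 3T3-L1, the haptoglobin gene Hp by 1.11 ± 0.12 and 6.56 ± 0.19, and Mif, a cytokine, by 3.26 ± 0.09 and 2.81 ± 0.08. The chemokine gene Ccl2 fell (log2 changes -5.95 in BAC and -3.69 in 3T3-L1), as did Fbn1, whose protein releases the peptide asprosin (-5.78 and -2.23). For Ccl2 in BAC the value without replicate 1 of day 4 was -7.07 and that without replicate 2 was -5.32. Igf1, a growth factor, fell by 4.37 in BAC and in 3T3-L1 had a change of 0.26 ± 0.05 (adjusted p = 0.000111) whose sign and call depended on the scaling. The difference between the lines was -4.66 ± 0.15 for Igf1 (adjusted p = 7.64e-20).

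Relatives of adiponectin in the C1q and TNF related family went down or were not past the test, apart from C1qtnf4. Of 9 listed, 1 was higher and 3 lower among 4 tested in BAC (median -4.15), and 2 were lower and 1 not past among 3 tested in 3T3-L1 (median -1.28). C1qtnf1 fell by 4.96 in BAC and had a change of -0.20 ± 0.28 in 3T3-L1 (adjusted p = 0.519), and C1qtnf6 fell in both lines (-4.72 and -2.16). C1qtnf3 had 35 counts in BAC at day 0 and 2 at day 4 and fell by 1.28 in 3T3-L1, where the DESeq2 test missed the threshold (adjusted p = 0.057). C1qtnf4 rose by 2.19 ± 0.36 in BAC and had no counts in 3T3-L1.

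The genes whose levels ran most like each member over the 8 libraries were found by Pearson's r of log2(CPM + 0.5) among 11589 genes with a mean of at least 2 CPM. The libraries form 4 groups, so r mainly reflects 4 group levels, and it is a description only. Adipoq ran most like Abhd15 (r = 0.9985), Pparg (0.9985), the master regulator of adipogenesis, and Grtp1 (0.9973). Lep ran most like Tbl2, Sccpdh and Dynll2 (0.9938 to 0.9949). Retn ran most like Aatk (0.9994), Whamm (0.9989) and Nr1h3 (0.9987), a sterol-sensing nuclear receptor, and Cfd most like Gramd1b (0.999), Tmem179 (0.9987) and Nfs1 (0.9985). For Rbp4 the genes were Gpr19 (0.9988), Alkbh2 (0.9987) and Tamm41 (0.9957), for Apln Fah (0.9984) and Fbxw2 (0.998), and for Angptl4 Dram2 (0.999), Thrsp (0.9986), a lipogenic protein, and Phb (0.9981). Nrg4 ran most like Rpp14 (0.9958), Tspo (0.9956) and Bcat2 (0.9955), the mitochondrial aminotransferase of branched-chain amino acids.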

How the data were processed

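Poly(A)-selected RNA of 8 libraries was sequenced, and the authors deposited raw counts, 1 table per line, with gene symbols and no normalization. The sources differ on how the counts were made: the methods name STAR, HTSeq and DESeq2, while Bowtie2, RSEM 1.3.1, DESeq2 1.4.5 and mm10 appear in the submitters' notes. Strand use: not given in the sources used here. Replicates were not pooled. Totals were 9045849 to 10160636 counts per library, which limits transcripts with few counts. For BAC, 27 row names that had become dates (at most 0.316% of counts) were left out.

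Each line was fitted alone by quasi-likelihood in edgeR 4.0.16 (two-sided, R 4.3.3, TMM factors, filterByExpr with a minimum count of 10, Benjamini-Hochberg adjustment at 0.05). The difference in change was fitted over 8 libraries on 21828 shared names. Standard errors come from the fitted weights and dispersions. Where all libraries of a group had 0 counts the floor was 3 counts for the whole group, and groups with 1 to 3 counts were given as ratios with exact 95% intervals. Floors and intervals cover counting error only. The code was checked on simulated data with 200 changed genes. Alternatives were DESeq2 1.42.0, library size, upper-quartile or RLE scaling, no filter, each library left out, the replicate block, shared names only and another transcript length.

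The members and lists were chosen with earlier results of these data known. Besides the members, named genes were, per list and line, up to 3 with the largest change past the test at a mean log2 CPM of at least 1, the largest change against the majority, and fixed receptors. Some genes that these rules would name are not reported here. Marker lists are reported as sums. Gene positions are from GENCODE M21 on GRCm38, matched by symbol for 26683 of 35949 BAC and 21342 of 21828 3T3-L1 names, and promoters are from RefSeq. The listed names C1s, Pcsk3 (an older symbol of Furin) and C1qtnf12 matched no row.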

Additional observations from a re-analysis of the deposited data

Results flagged for a closer look

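The change with differentiation differed between the lines for 5 of the 8 members, by a test of the difference itself in edgeR over 8 libraries. Of all 12863 genes tested, 59% were past that test. The change also differed for 4 other genes that the rules named and that were past the test in opposite directions in the lines. Values are the log2 change in BAC minus that in 3T3-L1. Among the members they were -6.44 for Adipoq (adjusted p = 9.39e-18), -4.63 for Retn (8.51e-06), -3.30 for Cfd (0.0294), -0.85 for Apln (0.000303) and 1.13 for Angptl4 (3.53e-08). The call for Cfd was lost with no filter on low counts (adjusted p = 0.143), without replicate 2 of BAC at day 0 (-1.70, adjusted p = 0.563) and without replicate 3 of 3T3-L1 at day 0 (-2.46, adjusted p = 0.123). The 4 other genes named by the rules were Angptl1 at -5.98 (adjusted p = 1.14e-11), Errfi1 at -2.88 (2.45e-15), Igf1 at -4.66 (7.64e-20) and Tlr4 at -1.64 (3.68e-09). The opposite direction of Igf1 rests on its 3T3-L1 change of 0.26, which was -0.031 with library size alone. Line, table and day of sampling (day 4 and day 6) differ together and cannot be told apart. Groups of 2 libraries were too small for a check of single outlying libraries.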

How the results depend on the processing

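All 7 tested members were higher and past the test in each line under every alternative run, and Lep also passed in BAC with no filter on low counts (5.06, adjusted p = 0.0385). Rbp4 in 3T3-L1 had 4.54 without the filter (adjusted p = 0.0553). Retn and Cfd in BAC, and Adipoq, Lep, Retn and Cfd in 3T3-L1, passed the filter only through the late libraries. With the filter in use their direction was therefore fixed in advance. Over all genes tested in the main fit, 39.1% in BAC and 39.8% in 3T3-L1 were called higher. Of the 5 members past the test of the difference, 4 stayed past it in all alternatives (Adipoq, Retn, Apln and Angptl4), and Cfd did not: it had -3.31 (adjusted p = 0.143) with no filter, and values from -5.56 to -1.70 with 1 library left out. For Adipoq the difference ranged from -7.42 to -5.86 with 1 library left out, the former without replicate 2 of 3T3-L1 at day 0. The difference for Nrg4, which was never past the test, changed sign with DESeq2 (0.067), library size alone (0.056), upper-quartile factors (0.12) and RLE factors (0.066), and ran from -0.14 to 0.36 with 1 library left out. Furin in 3T3-L1 (0.05) became -0.24 with library size alone (adjusted p = 0.00178), -0.11 with upper-quartile factors, and ran from -0.019 to 0.13 with 1 library left out. Igf1 in 3T3-L1 (0.26) became -0.031 with library size alone and 0.10 with upper-quartile factors (adjusted p = 0.0838). Upper-quartile factors shifted the median change by -0.16 in 3T3-L1. The share of calls larger in BAC went from 42.9% to 52.5% without replicate 1 and 52.4% without replicate 2 of BAC at day 0. The causes were not tested. Where a group was left with 1 library, that library was assumed to vary like the others.

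In BAC the replicate block left 7 members past the test and called 5528 genes higher and 5571 lower. Same-numbered libraries did not deviate together (correlation 0.02 over 14028 genes), so they share only a number. For 3T3-L1, no paired analysis was possible because the groups share only the number 2. Depth limits Lep in BAC, Rbp4 in 3T3-L1, and every change that starts from a few counts.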
